A study of Mus musculus with 5 samples.

Results

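Growth arrest-specific (Gas) genes were followed in HT22 cells, a mouse hippocampal neuronal line, after knockdown of the lncRNA GAS5 by siRNA. The genes were 8 protein-coding genes with growth arrest-specific names, besides Gas5 itself: Gas1, Gas2, Pmp22 (the former Gas3), Gas6, Gas7, Gas8, Gas2l1 and Gas2l3. Of these, Gas2l1 and Gas2l3 are named as relatives of Gas2. The members were taken by name and not by a measured value, although earlier results of these data were known. All 8 were found among the 55487 genes of the counts table, of which 27363 had at least 1 count in some library. The cells were grown in medium with serum, transfected with 10 nM siRNA in INTERFERin reagent, and taken for poly(A)-selected RNA-Seq 48 h later. There were 2 libraries with negative control siRNA (NC, replicates 1 and 2), 1 with GAS5 siRNA210 and 2 with GAS5 siRNA596 (replicates 1 and 2), and the GAS5 siRNA libraries together are called KD. The treatment label of the NC samples reads untreated, whereas their titles and the transfection protocol give NC siRNA. The labels do not say whether replicates came from separate cultures, so the P-values below measure only the spread between these libraries.

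The name growth arrest-specific was given to transcripts that accumulate when cultured fibroblasts stop dividing, for instance upon serum withdrawal. The proteins behind the name are not related to each other as a group. Gas1 is a membrane-anchored co-receptor for Hedgehog ligands, Gas6 is a secreted ligand of the TAM receptor tyrosine kinases, Pmp22 is a tetraspan protein of myelin, and Gas7 is an F-BAR protein that was found in neurons. Gas2, Gas2l1 and Gas2l3 share a GAS2 domain that binds microtubules and a calponin homology domain that binds actin, and Gas8 is a subunit of the nexin-dynein regulatory complex of motile cilia. Gas5 carries the same name but makes no protein, and is the host transcript of several snoRNAs. No library of arrested cells was analysed here, so the levels below are those of cultures in serum.

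The libraries held between 30660265 and 36492134 counts in genes. Gas5, the target, had 3178 and 2916 counts in NC, 2134 with siRNA210 and 2357 and 4727 with siRNA596. Gas5 was thus lower than NC in 2 of the 3 KD libraries, while siRNA596 replicate 2 went against its label, with the highest Gas5 count of all. In CPM, which are counts scaled to the TMM-adjusted library size, the values in this order were 90.4, 76.0, 59.7, 65.9 and 179. That library also stood apart across the transcriptome. Its log2 difference from the other libraries had a Spearman rho of -0.43 with transcript length over 16119 genes, as against -0.070 to 0.017 for the others, and 6263 genes lay past 2-fold, as against 590 to 902. The mean counts in the authors' comparison table matched these counts to within 0.0977% when siRNA596 replicate 2 was left out and differed by up to 345% with all 5 libraries, so that table was made from 4 libraries. The fold changes and tests of Gas5 and the members are therefore given with 4 libraries, without siRNA596 replicate 2, and with all 5. For partners and gene lists, effect sizes are from 4 libraries unless 5 are named. The log2 fold change of Gas5 was -0.41 ± 0.11 (SE) with 4 libraries and 0.29 ± 0.53 with 5, with unadjusted P-values of 0.00378 and 0.607 and adjusted P-values of 0.967 and 0.963 (edgeR quasi-likelihood test). Of the neuronal markers, Rbfox3, Snap25, Syt1 and Grin1 had at most 6 counts in any library, whereas Map2, Tubb3 and Dlg4 had between 497 and 3936, and the 9 neuronal markers summed to 201 to 216 CPM in 4 libraries and to 145 in siRNA596 replicate 2. The progenitor marker Sox2 had 0 counts, while Vim and Nes were detected. Of the 4 fibroblast markers, Col1a1 had 78569 to 157995 counts and Col1a2 22226 to 45249, whereas Dcn had at most 28 and Lum had 0 in each library.

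The promoters of 3 genes are shown because they belong to genes on which the results below turn or whose counts share sequence with a neighbour: Gas1, whose levels with the 2 siRNAs lay on different sides of the NC mean, Gas2, whose start lies within another gene, and Gas2l3, the cytokinesis gene that stood lowest in siRNA596 replicate 2 among the abundant members. Sequences are from RefSeq on GRCm38.p6, cover the 250 bases before the annotated start and run 5′ to 3′ on the strand of the gene. Capitals mark matches, on either strand, to CCAAT (the CCAAT box, ATTGG on the other strand) or GGGCGG (a GC box, CCGCCC on the other strand).
Gas1 (chr13:60177536-60177785, minus strand): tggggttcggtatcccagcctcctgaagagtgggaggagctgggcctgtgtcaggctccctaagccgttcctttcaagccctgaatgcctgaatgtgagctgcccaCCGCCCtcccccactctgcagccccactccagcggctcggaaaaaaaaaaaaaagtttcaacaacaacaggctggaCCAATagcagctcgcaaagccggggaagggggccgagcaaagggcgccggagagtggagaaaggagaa
Gas2 (chr7:51861765-51862014, plus strand): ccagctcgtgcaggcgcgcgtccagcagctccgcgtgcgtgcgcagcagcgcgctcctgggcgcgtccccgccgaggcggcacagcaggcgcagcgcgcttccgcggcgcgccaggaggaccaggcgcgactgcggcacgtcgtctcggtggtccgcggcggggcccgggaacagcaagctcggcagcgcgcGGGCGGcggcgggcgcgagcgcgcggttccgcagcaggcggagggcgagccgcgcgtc
Gas2l3 (chr10:89443968-89444217, minus strand): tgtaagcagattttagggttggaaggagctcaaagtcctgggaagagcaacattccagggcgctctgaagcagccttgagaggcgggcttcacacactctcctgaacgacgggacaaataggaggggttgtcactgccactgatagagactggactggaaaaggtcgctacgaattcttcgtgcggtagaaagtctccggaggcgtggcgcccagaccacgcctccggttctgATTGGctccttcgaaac
The Gas1 window held a GC box with its first base at -144 and a CCAAT box at -68 from the start. Gas1 itself shares exon sequence with the lincRNA Gm48488 on the opposite strand. The Gas2 window held a GC box at -58, had a GC content of 80.4%, and lies wholly within the bounds of Fancf, a DNA repair gene on the opposite strand (chr7:51860577-51862267). The Gas2l3 window held a CCAAT box at -17.

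RefSeq windows were found for 6 of the 8 genes, with 10 windows in all because Pmp22 has 4 starts, of which the last pair of windows overlaps, and Gas2 has 2. No window was read for Gas7 and Gas2l1. The GC box was in 6 of the 10 windows and in 32.7% of 32851 promoter windows of the same length, and the CCAAT box was in 5 of the 10 and in 33.8% of all. The Gas6 window held 4 GC boxes in its last 66 bases. The cell cycle element CHR, searched only as the exact letters TTTGAA, was in 1 window, that of the Gas2 start farther downstream, against 16.0% of all windows. Variants of it were not searched. No window held TATAAA (12.4% of all), the FOXO motif GTAAACA (3.2% of all) or the GLI motif GACCACCCA (0.2% of all). These matches describe letters in the windows and are not binding sites.

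On the GRCm38 annotation, Gas1 is a gene of 1 exon at chr13:60174405-60177365 and Gas6 spans 15 exons at chr8:13465374-13494490. Gas2 lies at chr7:51862015-51994975, Pmp22 at chr11:63128982-63159547, Gas7 at chr11:67455437-67688990 and Gas8 at chr8:123518834-123536650. The GAS2 relatives lie at chr11:5054132-5065327 (Gas2l1) and chr10:89408823-89443967 (Gas2l3). Of the genes, 5 share exon sequence with a gene on the opposite strand, and the strand setting of the counting is not given in the sources used here. The largest shares were 395 bases between Gas1 and Gm48488 and 253 bases between Gas2 and Fancf. Gm48488 had 6 to 36 counts per library, few beside the 1928 to 2912 of Gas1. Fancf had 231 to 327 counts, near the 238 to 394 of Gas2, so part of the Gas2 count could belong to Fancf. Gas7 shared 66 bases with Glp2r, which had at most 4 counts, Gas6 shared 34 with Tmem255b, which had at most 2, and Gas2l1 shared 14 with Rasl10a, which had 57 to 143.

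Levels were compared between genes as RPKM, the CPM divided by the exon length in kilobases. In NC, Pmp22 stood highest at 68.8 ± 4.73 RPKM (SD, n = 2), at percentile 95.5 of the tested protein-coding genes. Gas1 at 22.1 ± 5.04 and Gas2l1 at 19.9 ± 1.38 followed, and their NC ranges overlapped. Gas2l3 at 11.2 ± 1.3, Gas6 at 10.2 ± 1.48 and Gas8 at 10.2 ± 0.126 came next with overlapping ranges, at percentiles from 60.8 to 63.6. Gas2 was at 1.93 ± 0.178 RPKM, percentile 25.1, and Gas7 at 0.185 ± 0.171, percentile 6.8. Between Pmp22, these 2 sets, Gas2 and Gas7 the NC ranges did not overlap. Pmp22 was first, Gas2 seventh and Gas7 eighth in each of the 5 libraries.

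**Figure D1:**
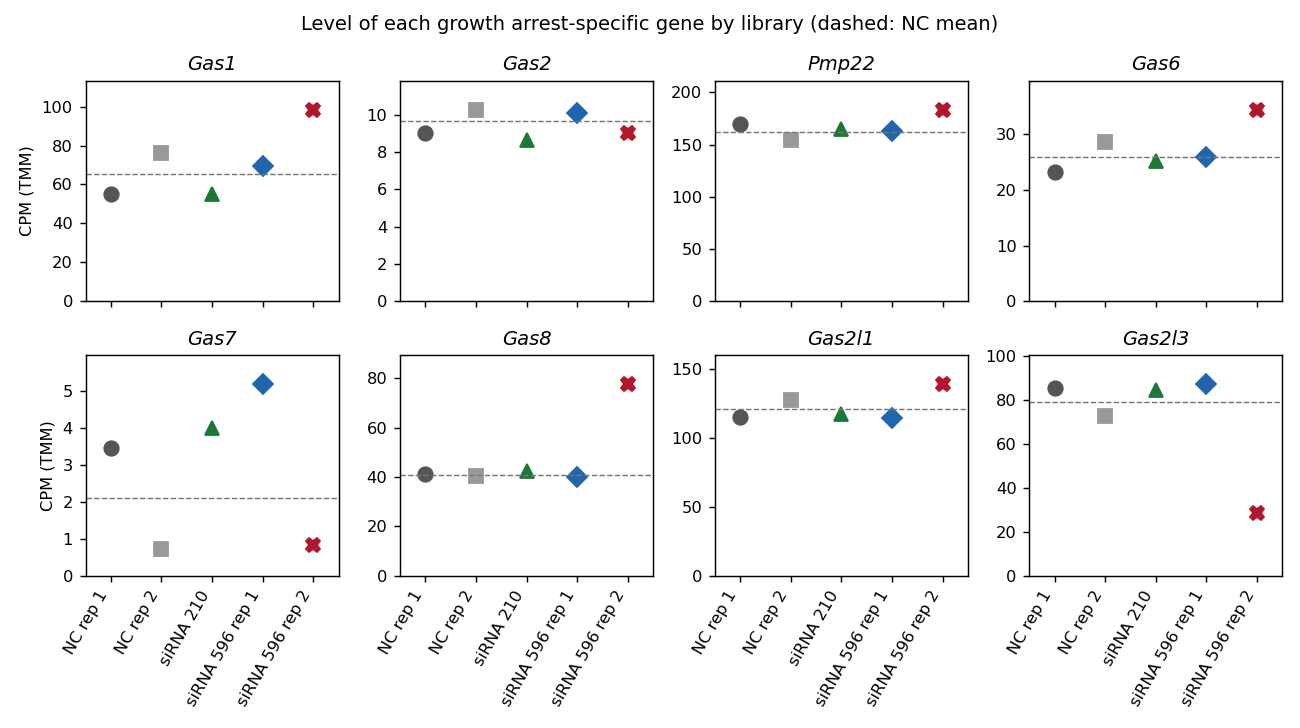
Level of each of the 8 genes in each library in TMM-scaled CPM, with NC in grey, siRNA210 in green, siRNA596 replicate 1 in blue and replicate 2 in red, and the NC mean dashed. The siRNA210 and siRNA596 replicate 1 points lie near the NC points, and for Gas7, at 4.0 and 5.20 CPM, above both. In siRNA596 replicate 2, Gas8 stands at 77.7 CPM, above the other libraries, and Gas2l3 at 28.6, below them.

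None of the 8 genes changed with GAS5 siRNA by the criteria of the study, an unadjusted P under 0.05 with a fold change over 2. The count was 0 of 8 with 4 libraries, where 0.876% of the 15867 tested genes passed (139 genes), and 0 of 8 with 5 libraries, where 0.353% of 16142 passed (57 genes). At an unadjusted P under 0.05 alone the count was again 0 of 8 in both fits, beside 3.3% of all genes with 4 libraries and 0.372% with 5. No member and no gene at all (0%) had an adjusted P under 0.05 in edgeR in either fit, in which 523 and 60 genes had an unadjusted P under 0.05. DESeq2 gave 1 gene at that adjusted threshold with 4 libraries, not a member, and 0 with 5. With shares this small among all genes, a count of 0 of 8 does not set the members apart from the other genes. The adjusted P-values of the members ran from 0.967 to 0.997 with 4 libraries and from 0.963 to 0.985 with 5. In bulk RNA a difference in the share of cells that express a gene and one in the RNA per cell cannot be told apart.

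**Figure D2:**
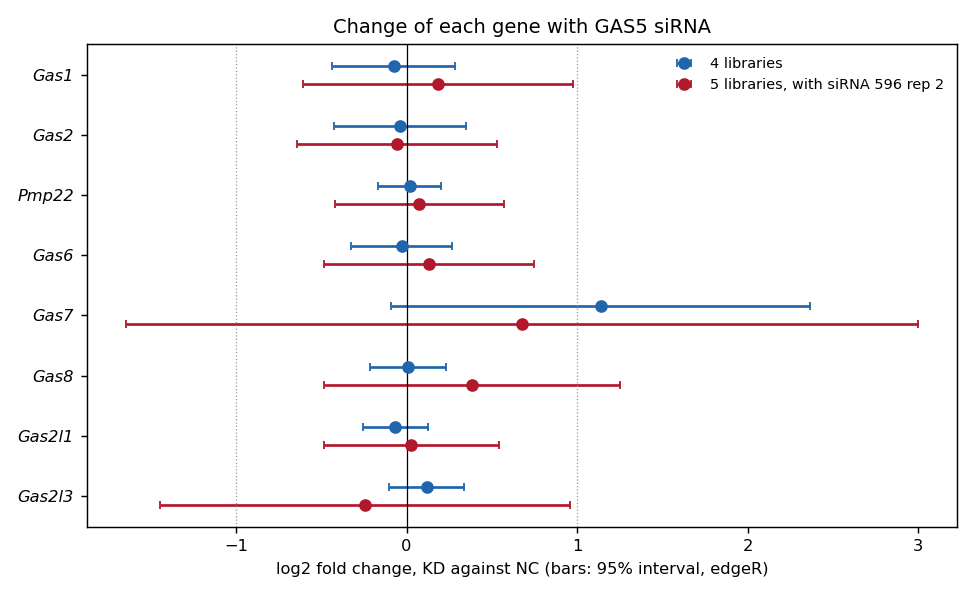
Log2 fold change of each gene, KD against NC, from edgeR with 4 libraries (blue) and with 5 (red), where bars are 95% intervals and dotted lines mark 2-fold. With 4 libraries every interval but that of Gas7 stays between -0.44 and 0.35, and the intervals of both fits include 0 for all 8 genes.

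Aside from Gas7, the 4-library intervals did not reach a 2-fold change: their 95% bounds ran from -0.44 (Gas1) to 0.35 (Gas2) on the log2 scale. They describe only these 4 libraries, with 1 per siRNA, in which KD Gas5 was at 75.4% of the NC mean. With siRNA596 replicate 2 the intervals widened, up to -1.45 to 0.96 for Gas2l3 and -0.48 to 1.25 for Gas8. The NC libraries differed from each other by more than KD differed from NC in 8 of the 8 genes, a relation found in 67.8% of 15788 genes with counts in all 4 libraries. The first is a difference of single libraries and the second of means of 2 libraries. The first thus tends to be the larger even without an effect of the siRNAs. The median size of the log2 difference was 0.209 between the NC libraries, 0.0506 between KD and NC and 0.0715 between the 2 siRNAs for the members, and 0.196, 0.118 and 0.124 for all genes. For Gas7 both KD libraries of the 4 nonetheless lay above both NC libraries. With 5 libraries the log2 fold change was larger in size than the log2 ratio of NC replicate 2 to replicate 1 for Gas8 and Gas2l3. The values were 0.38 beside -0.025 for Gas8 and -0.24 beside -0.23 for Gas2l3. In both genes siRNA596 replicate 2 stood apart from the other libraries. In 6 of 8 genes the NC libraries also differed more than siRNA210 and siRNA596 replicate 1 did, as in 61.9% of all genes, the exceptions being Gas2 and Gas8.

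**Figure D3:**
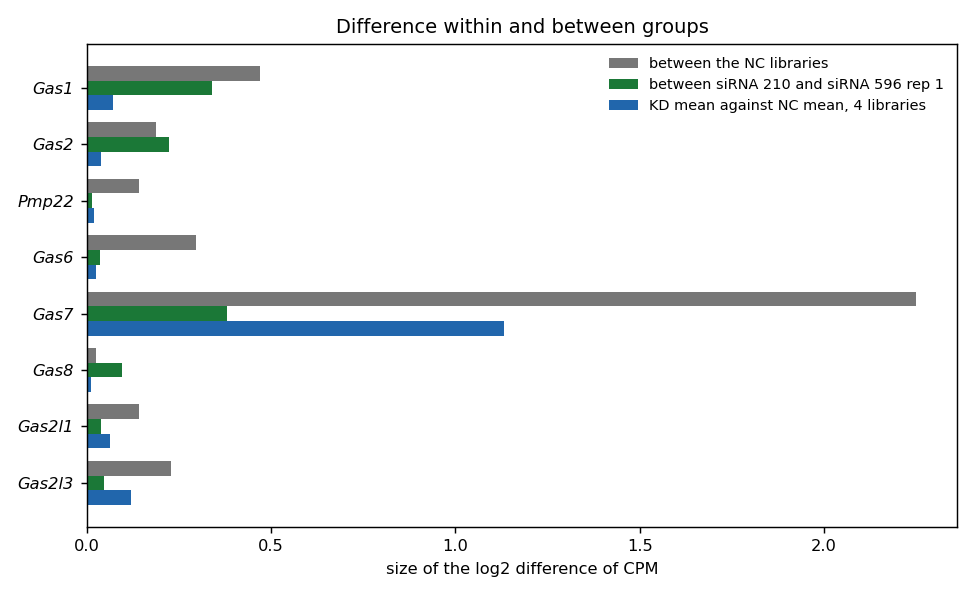
Size of the log2 difference in CPM between the NC libraries (grey), between siRNA210 and siRNA596 replicate 1 (green) and between the KD and NC means of the 4 libraries (blue), for each gene. The grey bar exceeds the blue bar in all 8 genes, and Gas7 has the longest grey bar, a difference of 2.25.

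Gas1, the Hedgehog co-receptor, had 1928 and 2912 counts in NC, 1964 with siRNA210 and 2485 and 2598 with siRNA596 replicates 1 and 2. In the same order its CPM was 54.8, 75.9, 54.9, 69.5 and 98.4. The siRNA210 library sat beside the lower NC library and siRNA596 replicate 1 between the NC libraries, and siRNA596 replicate 2 was above all others. The log2 fold change was -0.075 ± 0.16 (SE) with 4 libraries (unadjusted P = 0.651, adjusted P = 0.978, edgeR) and 0.18 ± 0.32 with 5 (unadjusted P = 0.589). Left out in turn, NC replicate 2 or siRNA210 turned the 4-library value positive, to 0.182 and 0.0831, so its sign rested on single libraries.

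The partners of Gas1 at the cell surface were detected, and the ligand gene Shh was not. Smo, the signal transducer of the pathway, was the highest of the Hedgehog list at 28.6 ± 4.38 RPKM in NC (SD, n = 2), followed by the co-receptor Cdon at 23.8 ± 2.13, close to Gas1 itself. The co-receptor Boc was at 6.91 ± 0.358 and the receptor Ptch1 at 5.77 ± 1.16. Shh had 0 counts in each library, which allows up to 3 counts. Of the 15 Hedgehog genes 10 were tested and 0 passed at an unadjusted P under 0.05 in either fit. The median log2 fold change was -0.103 with 4 libraries, beside -0.0023 over all genes. With 5 libraries it was -0.272, beside 0.0112, with 1 of the 10 above 0. In the 4-library fit 2 of the 10 lay above 0, and no single gene had a P below 0.138. NC replicate 2 was above the mean of the other 3 libraries in 9 of the 10, and without it 5 of the 10 lay above 0 with a median of -0.0195. Without NC replicate 1 it was 2 of the 10 with a median of -0.238, so the size of the shift rested on the choice of control library. Gas1 is also known as a Ret-binding relative of the GDNF receptors. Ret had at most 2 counts in any library, while Gdnf was at 8.71 ± 2.26 RPKM and the co-receptor Gfra1 at 1.21 ± 0.376, and 0 of the 5 tested genes of the GDNF family list passed. The 4-library median of this list was 0.179, and it was -0.0426 without NC replicate 2 and 0.49 without NC replicate 1.

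Gas6 and its receptors form the vitamin K-dependent TAM system, in which Gas6 and Pros1 bind Tyro3, Axl and Mertk. Gas6 had 820 and 1099 counts in NC, 903 with siRNA210 and 925 and 909 with siRNA596, or 23.3, 28.7, 25.2, 25.9 and 34.4 CPM. Both libraries of the 4-library KD group fell between the NC libraries. In edgeR the log2 fold change was -0.027 ± 0.13 (unadjusted P = 0.842) with 4 libraries and 0.13 ± 0.25 (unadjusted P = 0.613) with 5. Axl was the most abundant of the receptors, at 74.9 ± 0.598 RPKM in NC, above Tyro3 at 11.0 ± 1.38 and Mertk at 1.10 ± 0.0895. Of the ligands, Gas6 at 10.2 ± 1.48 RPKM was above Pros1 at 1.85 ± 0.0948. All 7 genes of the list were tested, 0 passed at an unadjusted P under 0.05 in either fit, and the 4-library median was 0.0023. The log2 fold changes of Axl were -0.049 ± 0.078 and of Tyro3 -0.030 ± 0.10 with 4 libraries. With 5 libraries they were -0.23 ± 0.28 and 0.0048 ± 0.20, and the list median was -0.105.

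Pmp22 was even across the libraries. It had 5972 and 5909 counts in NC, 5901 with siRNA210 and 5842 and 4843 with siRNA596, or 170, 154, 165, 163 and 183 CPM. The siRNA210 and siRNA596 replicate 1 libraries lay between the NC libraries and 0.015 apart on the log2 scale, and siRNA596 replicate 2 was the highest. KD against NC gave a log2 fold change of 0.018 ± 0.083 with a 95% interval of -0.17 to 0.20 with 4 libraries (unadjusted P = 0.835) and 0.075 ± 0.20 with 5 (unadjusted P = 0.723). Its tetraspan relatives were also abundant in NC, with Emp1 at 57.2 ± 0.244 RPKM, Perp at 35.1 ± 0.664, Emp3 at 33.3 ± 7.49 and Emp2 at 21.2 ± 2.93. Of the 6 relatives, 4 were tested and 0 passed at an unadjusted P under 0.05 in either fit (4-library median -0.0906).

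Gas7, which binds actin and N-WASP, was the one member whose KD libraries lay on 1 side of NC in the 4-library comparison, and the one with few counts. Its counts were 122 and 28 in NC, 143 with siRNA210 and 186 and 22 with siRNA596, or 3.47, 0.730, 4.0, 5.20 and 0.833 CPM. NC replicate 1 sat near siRNA210, and NC replicate 2 near siRNA596 replicate 2, so the libraries fell into a high set and a low set that both held an NC library. The log2 fold change was 1.14 ± 0.54 with 4 libraries (95% interval -0.090 to 2.37, unadjusted P = 0.0655, adjusted P = 0.967) and 0.68 ± 0.94 with 5 (-1.64 to 3.0, unadjusted P = 0.500). Without NC replicate 2 the 4-library value was 0.407, and without NC replicate 1 it was 2.65 (unadjusted P = 0.00187), so a single control library set its size. A position of both KD libraries beyond both NC libraries was found in 1 of 8 members and in 32.8% of all genes, and with 5 libraries in 0 of 8 members and in 17.8%. Its partner Wasl, which encodes N-WASP, was at 12.7 ± 0.772 RPKM in NC with a log2 fold change of -0.11 ± 0.087 with 4 libraries. Of the 23 genes of the F-BAR list, of which Pacsin2 was the highest at 41.6 ± 0.579 RPKM, 21 were tested and 0 passed at an unadjusted P under 0.05 in either fit (4-library median 0.0082).

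Gas2, a caspase substrate on actin filaments, had 317 and 394 counts in NC, 310 with siRNA210 and 362 and 238 with siRNA596, or 9.01, 10.3, 8.67, 10.1 and 9.01 CPM. All libraries lay within a narrow band, with siRNA210 lowest and NC replicate 2 highest. Its log2 fold change was -0.040 ± 0.17 (unadjusted P = 0.819) with 4 libraries and -0.057 ± 0.24 (unadjusted P = 0.818) with 5. Gas2l1, which links actin to microtubules and acts at the centrosome, had 4060 and 4885 counts in NC, 4212 with siRNA210 and 4101 and 3672 with siRNA596, or 115, 127, 118, 115 and 139 CPM. Its values with siRNA210 and siRNA596 replicate 1 lay close to the lower NC library, and the log2 fold change was -0.065 ± 0.084 (unadjusted P = 0.458) with 4 libraries and 0.028 ± 0.21 (unadjusted P = 0.896) with 5.

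Gas2l3, which associates with the chromosomal passenger complex and acts in cytokinesis, had 2993 and 2785 counts in NC, 3013 with siRNA210 and 3113 and 756 with siRNA596, or 85.1, 72.6, 84.2, 87.0 and 28.6 CPM. In 4 of the libraries it ranged little, and siRNA596 replicate 2 was below all of them. The log2 fold change was 0.12 ± 0.097 with 4 libraries (unadjusted P = 0.255, adjusted P = 0.967) and -0.24 ± 0.49 with 5 (unadjusted P = 0.638), so the sign turned with that library. Without NC replicate 1 the 4-library value was 0.236, with an unadjusted P of 0.0256 in edgeR, and without NC replicate 2 it was 0.00924 (unadjusted P of 0.894), so the size rested on the choice of control library. Per length Gas2l3 was above Gas2 in all libraries, whereas the further relative Gas2l2 had at most 2 counts. Mapre1, the microtubule end-binding protein to which GAS2-like proteins bind, was at 35.1 ± 4.37 RPKM in NC with a log2 fold change of -0.096 ± 0.097 with 4 libraries. Of the 6 GAS2-domain relatives and EB genes, 5 were tested and 0 passed at an unadjusted P under 0.05 in either fit. All 12 cytokinesis and passenger genes were tested and 0 passed in either fit. Plk1, a mitotic kinase, was the most abundant of them at 63.4 ± 6.67 RPKM. Its log2 fold change was -0.17 ± 0.096 with 4 libraries (unadjusted P = 0.103, edgeR) and 0.11 ± 0.30 with 5, so the sign turned.

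Gas8 had the closest agreement between NC libraries, with 1450 and 1554 counts, beside 1523 with siRNA210 and 1425 and 2051 with siRNA596. The CPM values were 41.2, 40.5, 42.6, 39.8 and 77.7. The first 4 libraries ran from 39.8 to 42.6 CPM and siRNA596 replicate 2 was far above them. For Gas8 the log2 fold change was 0.0099 ± 0.099 with 4 libraries (unadjusted P = 0.923) and 0.38 ± 0.35 with 5 (unadjusted P = 0.317). The other genes of the nexin-dynein regulatory complex were near the lower end of detection: its most abundant member after Gas8 was Efcab2 at 0.549 ± 0.0568 RPKM, with Drc3 at 0.405 ± 0.0589 and Ccdc65 at 0.197 ± 0.0362, against 10.2 ± 0.126 for Gas8. Of its 10 other genes 6 were tested and 0 passed at an unadjusted P under 0.05 in either fit. The 4-library median log2 fold change of these 6 was 0.453, beside -0.0023 over all genes, with 4 of 6 above 0. With 5 libraries the median was 0.303, with 5 of 6 above 0. NC replicate 2 was below the mean of the other 3 libraries in 5 of the 6. Without NC replicate 2 the 4-library median was -0.123, with 2 of 6 above 0. Without NC replicate 1 it was 0.258, with 6 of 6 above 0, so the sign rested on the choice of control library. The motile cilia markers summed to between 0.152 and 0.768 CPM per library.

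**Figure D4:**
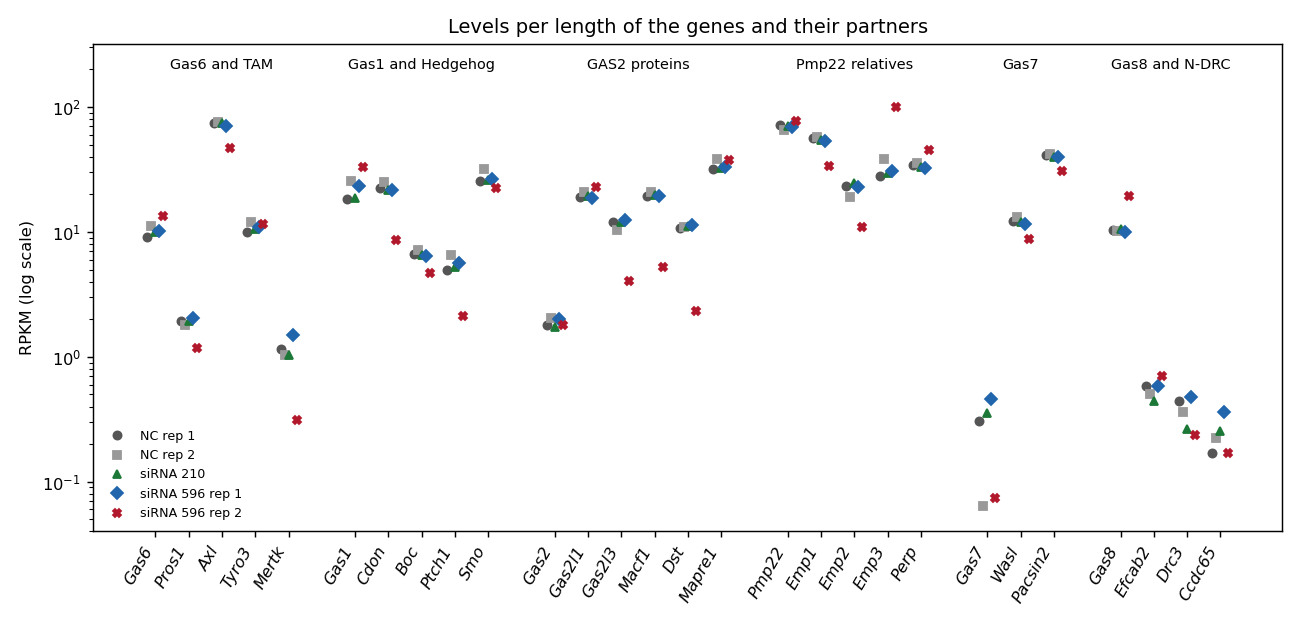
RPKM on a log scale in each library for the 8 genes beside their partners or relatives, in 6 sets, with library colours as in the plot of levels. Axl stands above Gas6, Smo and Cdon beside Gas1, and the other nexin-dynein genes more than 10-fold below Gas8. The red points of siRNA596 replicate 2 lie apart from the rest for many of the genes, in both directions.

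The scatter in siRNA596 replicate 2 was laid beside transcript length, since long transcripts were lower relative to short ones in that library. Over 20 bins of genes, the median log2 difference from the other 4 libraries ran from 0.82 at a median length of 396.5 bases to -1.24 at 9391.5 bases. The members with the longest transcripts, Gas7 (7067 bases) and Gas2l3 (6748 bases), were the ones that stood lowest, at -1.64 and -1.52. A smooth trend over length and GC content gave -0.85 and -1.12 for these genes, which left -0.79 and -0.40. Gas8, of 3469 bases, stood highest at 0.92, where the trend over length and GC content gave -0.049, which left 0.97. Gas1 was at 0.64 with a trend of 0.25, and Gas2, Pmp22, Gas6 and Gas2l1 lay between -0.074 and 0.42, from 0.023 to 0.24 above the trend. Each departure from the trend was smaller than the residual SD of 1.14 over the 16119 genes, those with few counts included. In the bin nearest to Gas8 in length, with a median of 3338 bases, the quartiles of the log2 difference were -0.65 and 0.41. Gas8 at 0.92 thus lay above the upper quartile. Gas1 also lay above the upper quartile of its nearest bin, and Gas7 and Gas2l3 below the lower quartile of theirs. Gas2, Pmp22, Gas6 and Gas2l1 lay between the quartiles of their nearest bins. The part of transcript length in the members' values was not tested.

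**Figure D5:**
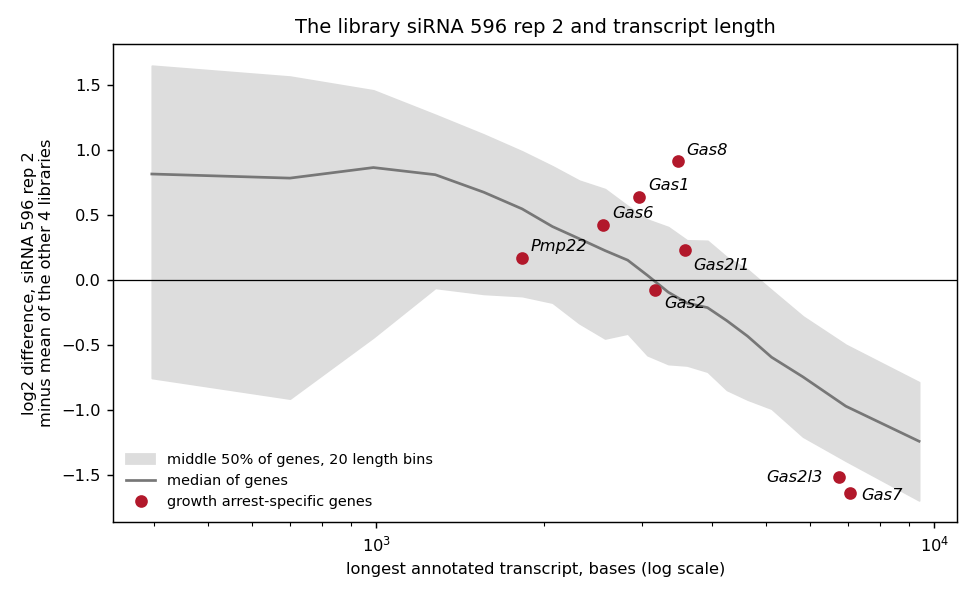
Log2 difference of siRNA596 replicate 2 from the mean of the other 4 libraries against the longest annotated transcript (log scale), for the 8 genes (red), with the median (line) and middle 50% (grey) of all genes in 20 length bins. Gas2l3 and Gas7 lie low at the long end, and Gas8 at 0.92 and Gas1 at 0.64 lie above the line.

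Genes with the most similar profile were sought as the smallest root mean square difference in log2 CPM over the 5 libraries, each gene centred on its mean, among 12816 genes. These were Vapb for Pmp22 (0.0143), Cct5 for Gas8 (0.0122), Lrrc28 for Gas2l1 (0.0124), Ift80 for Gas2l3 (0.0195), Eftud2 for Gas6 (0.0246), Gramd3 for Gas2 (0.0283) and Gm10069 for Gas1 (0.0532). Gas7 had no close match, its nearest being the tubulin-binding neuronal gene Stmn4 at 0.197. Stmn4 had 127 and 20 counts in NC, 103 with siRNA210 and 153 and 20 with siRNA596, thus low in the same libraries as Gas7, NC replicate 2 and siRNA596 replicate 2. Ift80 had 2901, 2710, 2977, 2949 and 735 counts in the library order used above, close to Gas2l3 in each. Among the members themselves the nearest pairs were Gas6 with Gas2l1 (0.0963) and Pmp22 with Gas2l1 (0.0996), and Gas7 was farthest from the others, at 0.866 to 1.41. With 5 points, of which 1 library stands apart, these profiles are a description.

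Wider lists of other growth arrest genes, of genes linked to quiescence and of proliferation genes were set beside the members. All 11 genes of the Gadd45, Btg and Tob list were tested and 0 passed at an unadjusted P under 0.05 in either fit, with 9 of 11 above 0 and a median of 0.0707 with 4 libraries. NC replicate 2 was below the mean of the other 3 libraries in 7 of these 11 genes, and without it 6 of 11 lay above 0 with a median of 0.0156. Without NC replicate 1 it was 8 of 11 with a median of 0.207. Of the 17 quiescence-linked genes 14 lay above 0 with 4 libraries, with a median of 0.145 as against -0.0023 over all genes, and 7 of 17 with 5 libraries, with a median of -0.062. NC replicate 2 was below the mean of the other 3 libraries in 13 of the 17, as in 51.3% of all genes, and without it 12 of 17 lay above 0 with a median of 0.0473. Without NC replicate 1 it was 13 of 17 with a median of 0.244, so the size of the shift rested on the choice of control library. The single gene of this list under an unadjusted P of 0.05 was Ccng2, an atypical cyclin linked to cell cycle exit, in the 4-library fit. Its counts were 3083 and 2375 in NC, 3846 with siRNA210 and 3253 and 435 with siRNA596. Its log2 fold change was 0.41 ± 0.15 with 4 libraries (unadjusted P = 0.0248, adjusted P = 0.967) and -0.061 with 5, and it did not pass the adjusted test. Of the 11 proliferation genes, led by Pcna at 143 ± 5.11 RPKM, 0 passed in either fit and the medians were 0.00050 with 4 libraries and 0.013 with 5. The most abundant genes of the first 2 lists were Gadd45b at 32.4 ± 3.95 RPKM and Klf6 at 24.9 ± 3.43 RPKM in NC.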

How the data were processed

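The authors deposited raw counts per gene for 5 libraries. Per the labels and the methods, reads were trimmed with Trimmomatic, aligned with HISAT2 2.1.0 to GRCm38 and counted with featureCounts 2.0.1, with SAMtools 1.7 among the tools named in the submitters' notes. How strand and multi-mapping reads were treated is not given in the sources used here. A comparison table made by the authors with DESeq2 1.26.0 holds fold changes and P-values, which were not used, and the mean expression signal in that table, deposited by the authors as counts scaled between libraries, served only to find which libraries it was made from. Even counts made up 60.1% to 66% of counts from 1 to 50 in each library. No column of per-sample values was left unmapped. Gene names came from GENCODE M21, which named 55227 of the 55487 genes (99.5%).

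Genes past filterByExpr were scaled by TMM and tested in R 4.3.3 with edgeR 4.0.16 (glmQLFit and glmQLFTest), with Benjamini-Hochberg adjustment over all genes tested, and SE was the log2 fold change over the root of F. Counts of 3 or fewer were taken as the floor. DESeq2 1.42.0, other scalings and filters and leaving out libraries were alternatives, of which the gene lists without an NC library were added after the data were seen, mgcv 1.9.3 gave the trend with length and GC content, and figures were drawn with matplotlib 3.10.9 in Python 3.11.15. siRNA210 has 1 library and was not tested alone. The members and lists were chosen with earlier results of these data known. Named genes are the members, Gas5, direct binding partners, the gene of highest level and any gene with an unadjusted P under 0.05 of each list, the nearest profile of each member, and genes that overlap a member. Further relatives, ligands and markers were named after their values were seen.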

Additional observations from a re-analysis of the deposited data

Results flagged for a closer look

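Gas1 lay on different sides of the NC mean with the siRNAs, at a log2 ratio of -0.252 in the siRNA210 library and 0.0876 and 0.59 in siRNA596 replicates 1 and 2. The difference between the siRNAs was not tested, as siRNA210 has 1 library. The NC libraries themselves differed by 0.47 for this gene, and siRNA596 replicate 2 is the library that stands apart.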

How the results depend on the processing

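The count of genes past the criteria with 4 libraries, 139, was 67 with DESeq2, 282 without a low-count filter, 73 with at least 10 counts in every library and 125 to 374 with a library left out, highest without NC replicate 1. The count of members, 0, was 1 (Gas7, log2 fold change 1.14, unadjusted P = 0.0184 in edgeR) without the filter and 0 to 1 with a library left out, Gas7 again, without NC replicate 1 or siRNA210. With 5 libraries the 57 genes became 167 without a filter, 37 with at least 10 counts and 33 to 139 with a library left out, lowest without NC replicate 2 and highest without siRNA596 replicate 2, and the members stayed at 0 under the alternatives run.

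Over 168 alternatives of the log2 fold changes of members, 138 kept direction and side of the threshold, 26 turned in sign and 4 came to an unadjusted P under 0.05, all 4 in Gas7 or Gas2l3. Values near 0 turned with scaling by library size alone, to -0.000516 for Pmp22 and -0.00895 for Gas8 with 4 libraries and to -0.0325 for Pmp22 and -0.0839 for Gas2l1 with 5. With 5 libraries, offsets that follow length and GC content gave 0.0571 for Gas2, -0.0217 for Gas6, -0.0485 for Gas2l1 and 0.0158 for Gas2l3. With a library left out, the 4-library ranges were -0.29 to 0.182 for Gas1, -0.158 to 0.0653 for Gas2, -0.0486 to 0.0891 for Pmp22, -0.168 to 0.132 for Gas6, -0.0407 to 0.0552 for Gas8, -0.135 to 0.00979 for Gas2l1, 0.00924 to 0.236 for Gas2l3 and 0.407 to 2.65 for Gas7. With 5 libraries they were -0.0748 to 0.432 for Gas1, -0.152 to 0.0361 for Gas2, -0.0269 to 0.285 for Gas6, -0.0494 to 2.19 for Gas7, -0.0653 to 0.0964 for Gas2l1 and -0.483 to 0.117 for Gas2l3. The causes were not tested.

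With the replicate number as a block, siRNA596 against NC gave 426 genes past the criteria as against 41 without the block, and 0 members in both. The labels do not say whether equal replicate numbers mark a shared culture or batch. The deviations of the first replicates of both groups correlated at 0.0948 over 16142 genes. That value covers only the first replicates and cannot decide whether the replicates are paired. Precision is limited by 2 NC libraries and, for Gas7, by counts as low as 22.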
